A study of Mus musculus with 46 samples.

Results

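The data described here are the single E4.5 epiblast cells of a study of mouse embryos that lack Rbbp5: 3 knockout (KO) cells and 7 wild-type (WT) cells. They were taken by the name of their expression column, and they are 10 of the 33 RNA libraries and 10 of the 46 samples of the series. The other RNA libraries are 14 inner cell masses (ICM) at E3.5, 6 epiblasts at E5.5 and 3 primitive endoderm cells at E4.5. The remaining samples measure H3K4me3, open chromatin or DNA methylation. KO embryos had received, as zygotes, either Cas9 mRNA with a guide RNA against Rbbp5 (wild-type zygotes) or Cre mRNA (Rbbp5 flox/flox zygotes), per the labels. Which of these routes made each KO cell, the mouse strain, and whether the WT zygotes were injected are not given in the sources used here. Embryos grew in KSOM medium, the layers were separated by immunosurgery, and each cell was sequenced by SMART-seq2, which copies full-length mRNA without keeping its strand. The labels name no embryo for any cell, so several cells may share one, cells are not embryo replicates, and each group counts as 1 sample. No difference was therefore tested, and the values describe these 10 cells.

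RBBP5 is a core subunit, with WDR5, ASH2L and DPY30, of the COMPASS family of complexes that methylate lysine 4 of histone H3, a mark found at active promoters. At E4.5 the epiblast of the implanting blastocyst is in the naive state of pluripotency and soon after enters the formative state of the E5.5 epiblast, with a shift in transcription factors, DNA methylation and energy metabolism. The primitive endoderm, its sister layer, forms from the same ICM.

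Expression is given in FPKM, a count of fragments corrected for the length of the transcript and the size of the library. The library labels were checked first. Summed FPKM of 10 epiblast markers ran from 1644 to 2503 in WT cells and from 1456 to 2861 in KO cells. In the endoderm cells the sum was 324.5 to 1056. Pou5f1 was a large part of these sums, at 513.8 to 1211 in the 10 cells and 322.1 to 732.3 in the endoderm cells. Single markers differed. Nanog had 721.4, 724.6 and 222.2 FPKM in KO cells 1, 2 and 3 against 59.6 to 252.9 in WT. Utf1 had 111.3, 133.4 and 271.4 against 350.9 to 871.2, and Gdf3 34.8, 20.5 and 0.720 against 49.6 to 114.6. Gata4 and Sox17, which define primitive endoderm, had at most 0.345 FPKM in the 10 cells, and 15 endoderm markers summed to 24.5 to 80.4 in WT and 3.66 to 99.9 in KO, against 780.0 to 3580 in the endoderm cells. Summed FPKM of 9 trophectoderm markers was higher in KO cells, 137.7 to 334.6, than in WT cells, 55.7 to 129.0. Cdx2, which defines trophectoderm, stayed at or below 1.09 FPKM in all 10, and the keratin genes Krt8 and Krt18 and the claudin gene Cldn4 carried most of the KO sums. None of these 3 genes lay above the WT range in every KO cell. Krt8 did so in KO cells 1 and 3, Krt18 in KO cell 2 alone (241.3 FPKM) and Cldn4 in KO cells 1 and 2. Krt19, another keratin gene, lay inside the WT range in all 3 KO cells. Of the other trophoblast transcription factors, Gata3 had 26.6 FPKM in KO cell 3 (WT at most 3.60) and Tead4 37.1 in KO cell 1 (WT at most 18.2). Gata3 lay inside the WT range in KO cells 1 and 2, and Tead4 had only 0.06 and 0.271 FPKM in KO cells 2 and 3. Of 4 blood and maternal tissue markers, Hba-a1 was listed at 0 in all 10 cells. Cd68 stood at 0, 127.0 and 2.38 FPKM in KO cells 1, 2 and 3 against 0 to 33.0 in WT, and Pecam1 at 24.9, 46.6 and 2.15 against at most 2.88. The part of these markers in the results was not tested. Rbbp5 was not analysed here, and its deletion could not be checked in these cells.

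Relative depth was recovered from the low values of the table, which step by what 1 fragment is worth in a cell. Set to 1 in KO cell 1, it was 0.994 and 0.988 in KO cells 2 and 3, and between 0.517 and 1.27 in the WT cells, so KO depth lay inside the WT range. Even so, KO cells had 3026, 3628 and 3056 genes at 1 FPKM or more, all below the 3878 to 4682 of the WT cells. The WT cell with the most detected genes, 4682, had a relative depth of only 0.559. Fewer mRNA molecules in a cell and fewer molecules captured from it cannot be told apart.

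**Figure D1:**
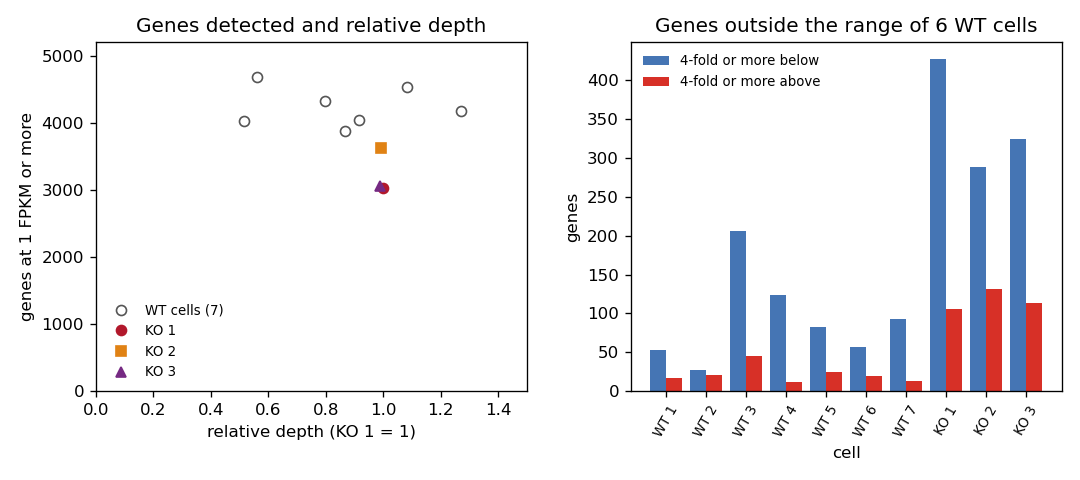
Left, genes at 1 FPKM or more (vertical) against relative depth (horizontal, KO cell 1 set to 1) for 7 WT and 3 KO cells; right, for each cell, the number of genes at least 4-fold below or above the range of 6 reference WT cells. The KO cells sit at depths of 0.988 to 1 with 3026 to 3628 genes, and their bars exceed those of every WT cell.

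Each WT cell was held out and compared with the other 6, and each KO cell with each set of 6 WT cells in turn, the counts averaged. Of 4166 genes whose group means averaged 5 FPKM or more, a KO cell had 426.7, 288.4 and 324.3 genes at least 4-fold below all 6 reference cells on the scale of FPKM + 1, in the order of KO cells 1, 2 and 3. A held-out WT cell had 28 to 206 such genes, with a median of 83. Genes at least 4-fold above all 6 numbered 106, 132 and 113.4 in KO cells and 12 to 46 in WT cells. The WT cell nearest to the KO cells on both counts was WT cell 3. Across genes, the Spearman rank correlation of log2(FPKM + 1) with the mean of the reference cells was 0.481, 0.494 and 0.57 in KO cells and 0.659 to 0.782 in WT cells; genes are not independent, and the coefficient is a description.

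The KO cells differed from each other about as much as from the WT cells. The same coefficient between pairs of cells was 0.440 to 0.507 for the 3 KO pairs, 0.395 to 0.532 for the 21 pairs of a KO and a WT cell, and 0.549 to 0.734 for the 21 WT pairs. Of genes at least 4-fold below all 7 WT cells, 49 were so in all 3 KO cells, 72 in KO cells 1 and 2 alone, and 201, 99 and 144 in 1 KO cell alone. Of genes at least 4-fold above, 12 were shared by all 3, 33 by KO cells 1 and 2, and 35, 60 and 71 were seen in 1 KO cell. Most departures from the WT range thus belonged to single KO cells.

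A gene was called lower or higher in KO when the ranges of the groups did not overlap and the medians of FPKM + 1 differed at least 4-fold. By this rule 131 of 4166 genes were lower (3.14% of genes tested) and 101 were higher (2.42%). Of the lower genes, 81 were under 1 FPKM in every KO cell and 18 were listed at 0 in all 3. Only 3 of the higher genes were under 1 FPKM in every WT cell. The counts are not on equal terms, since the latter asks it of 7 cells and the former of 3, and KO cells had fewer detected genes. The median log2 ratio of medians over all 4166 genes, KO to WT, was -0.16. Without KO cell 1, 2 or 3 the rule called 199, 249 and 297 genes lower and 196, 182 and 242 higher, since fewer cells then have to lie outside the WT range.

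Among the 12 higher genes with the widest gap between the groups were enzymes and membrane proteins with a sizeable level in WT cells. Sat1, on chromosome X, encodes the acetyltransferase that starts polyamine breakdown. It had 1300, 1042 and 843.5 FPKM in KO cells and at most 142.4 in WT cells, with a median of 76.3 (log2 ratio of medians 3.75). Every KO cell thus held several times the level of the highest WT cell. Gja1, which encodes the gap junction protein connexin 43, was nearly level among KO cells at 334.0, 352.8 and 376.0 FPKM, against 9.43 to 75.3 in WT, median 60.5 (log2 ratio 2.52). Gsto1, the glutathione transferase, had the highest log2 ratio of the 12, 5.30. Mmaa, a GTPase of vitamin B12 metabolism, had 16.8, 12 and 29.6 FPKM where no WT cell exceeded 1.28. Lxn, an inhibitor of carboxypeptidases, had 28.4, 10.5 and 42.6 FPKM where no WT cell exceeded 1.39. Gca, which encodes the calcium-binding protein grancalcin, had 17.6, 33.7 and 22.4 FPKM where no WT cell exceeded 2.64. These 3 were at or near 0 in most WT cells. Anxa1, S100a1 and Taf1c, with log2 ratios of 4.47, 4.65 and 4.88, were of the same kind, and the last 3 of the 12, Glb1, Ctsa and Mfsd1, belong to the lysosome.

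The 12 lower genes with the widest gap were near 0 in the KO cells. Ccnd1 encodes cyclin D1, which carries cells from G1 towards S phase. It had 25.5 to 96.4 FPKM in WT cells, median 40.0, and 0, 0.0487 and 0 in KO cells (log2 ratio -5.36). Cyclin E1's gene Ccne1 was listed at 0 in the 3 KO cells and had 1.5 to 55.1 FPKM in WT. Both G1 cyclins were thus at or near 0 in every KO cell. Phf10, a subunit of the PBAF chromatin remodeller, was listed at 0 in the KO cells and had 14.4 to 95.8 FPKM in WT, median 32.1. Stmn2, a microtubule-destabilising protein, had 0.183, 5.92 and 0.0925 FPKM against 85.1 to 279.9. Tbce, a chaperone that folds tubulin, had 0, 0 and 0.284 against 16.3 to 67.9. All KO cells were far below the WT minimum for both. Ddx58, the RNA sensor RIG-I, had at most 0.0518 FPKM in KO and 13.8 to 47.7 in WT. Ttc4, a co-chaperone of HSP90, had at most 0.0902 against 21.0 to 108.9, and Eral1, which assists assembly of the mitochondrial ribosome, at most 0.189 against 13.5 to 42.0. Cd81, Traf7, Uchl1, Lefty2 and Bcam completed the 12, with log2 ratios of -7.09, -5.74, -6.90, -4.93 and -5.09. In a single cell a gene at 0 can be a transcript that was present and not captured.

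The next comparison asked where the cells lie between the stages before and after them. Genes were taken from the WT embryo libraries, which share no sample with the cells: those higher in ICM than in E5.5 epiblast without overlap and at least 8-fold (171 of 7182 genes, 2.38%) and the reverse (182 genes, 2.53%). The score of a list in a cell is the median over its genes of the log2 difference of FPKM + 1 from the mean of the 6 reference WT cells. The 143 tested genes of the E5.5 list scored -2.90, -1.85 and -2.63 in KO cells 1, 2 and 3 and -0.44 to 0.11 in held-out WT cells, so all 3 KO cells lay below all 7 WT cells. The 125 tested genes of the ICM list scored 1.19 and 1.32 in KO cells 1 and 2, above the WT range of -0.71 to 0.05, and -0.24 in KO cell 3, inside it. The median over all 4166 genes was -0.80, -0.26 and -0.23 in KO cells and -0.44 to 0.00 in WT cells. With lists at a 4-fold instead of an 8-fold minimum, the difference of the E5.5 list (KO median minus WT median) was -0.89 instead of -2.46 and that of the ICM list 0.93 instead of 1.68, and all 3 KO cells lay outside the WT range in both. A gene could pass the 5 FPKM filter through its level in 1 group alone, here and in the calls. With genes down to a mean of 1 FPKM the differences were -2.24 (E5.5 list) and 1.18 (ICM list). At a mean of at least 20 FPKM they were -1.38 and 1.91.

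**Figure D2:**
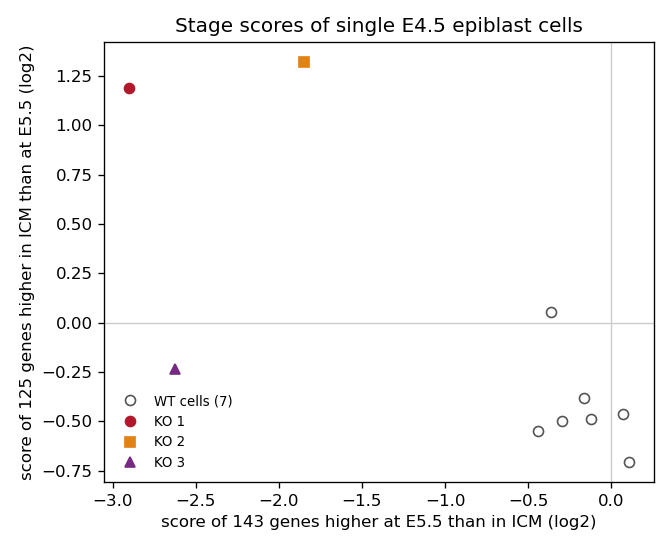
Each point is 1 cell: the score of 143 genes higher at E5.5 than in ICM (horizontal, log2) and of 125 genes higher in ICM than at E5.5 (vertical, log2). The KO cells lie at -2.90 to -1.85 on the horizontal axis, left of all WT cells, and KO cells 1 and 2 lie above all WT cells on the vertical axis, while KO cell 3 does not.

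Of the 143 genes of the E5.5 list, 19 (13.3%) were called lower and 0 higher, against 3.14% and 2.42% of all tested genes. Besides Ccnd1, they included transporters and metabolic enzymes. Slc38a2, a carrier of neutral amino acids, had 0, 0.0389 and 0 FPKM in KO cells and 11.0 to 51.7 in WT. Slc7a7, a carrier of cationic amino acids, had 0.177 to 0.267 against 10.4 to 105.3. Mthfd1l, of the folate cycle in mitochondria, had at most 0.0512 against 10.6 to 35.3. Bst2, which encodes tetherin, stood at 0 in all KO cells and in WT at 7.09 to 104.5. All 4 were near 0 in the KO cells. Other genes of the list were not: Bax, a promoter of apoptosis, had 368.2, 385.3 and 309.1 FPKM in KO and 98.1 to 310.2 in WT, and overlapped.

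Of the 125 genes of the ICM list, 16 (12.8%) were called higher and 2 (1.6%) lower. Calcoco2, a receptor of selective autophagy, had 2591, 1394 and 504.7 FPKM in KO cells and 4 to 215.3 in WT, median 64.4 (log2 ratio 4.41). Slc24a5, an ion exchanger, had 37.1, 66.8 and 42.3 FPKM against at most 9.33. Sat1, Gsto1 and Mfsd1 were in this list too. The 2 called lower were Slc46a1, the folate transporter, at 0.0965, 0.195 and 0 FPKM against 2.78 to 29.3, and Anxa2, at 1.54 to 1.71 against 1.91 to 101.1. Of 16 tested naive pluripotency genes 1 was called, near the share of all tested genes (2.42% higher and 3.14% lower): Fbxo15, at 769.3, 316.1 and 83.4 FPKM against 30.8 to 81.2. The list scored 0.19, 0.87 and -0.76 in KO cells and -0.72 to 0.28 in WT.

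Scores were made for 28 of 31 gene lists, those with 5 or more tested genes. In held-out WT cells 123 of 196 list scores were below 0, and in KO cells 61 of 84, so a score below 0 is common in a single WT cell as well. All 3 KO cells lay outside the WT range in 3 lists: above it for the lysosome, and below it for cholesterol synthesis and imprinted genes. KO cells 1, 2 and 3 lay below every WT cell in 16, 10 and 11 of the 28 lists and above in 3, 5 and 2. By comparison, 0 to 9 lists had a given WT cell as the lowest of the 7. Without KO cell 2 or 3, 8 and 9 lists lay below and 1 and 3 above. Trophectoderm markers scored 0.196, -0.0862 and -0.116 in KO cells 1, 2 and 3 and -1.37 to 0.11 in WT. Only KO cell 1 thus lay above the WT range in that list, although the summed FPKM of trophectoderm markers was higher in all 3.

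**Figure D3:**
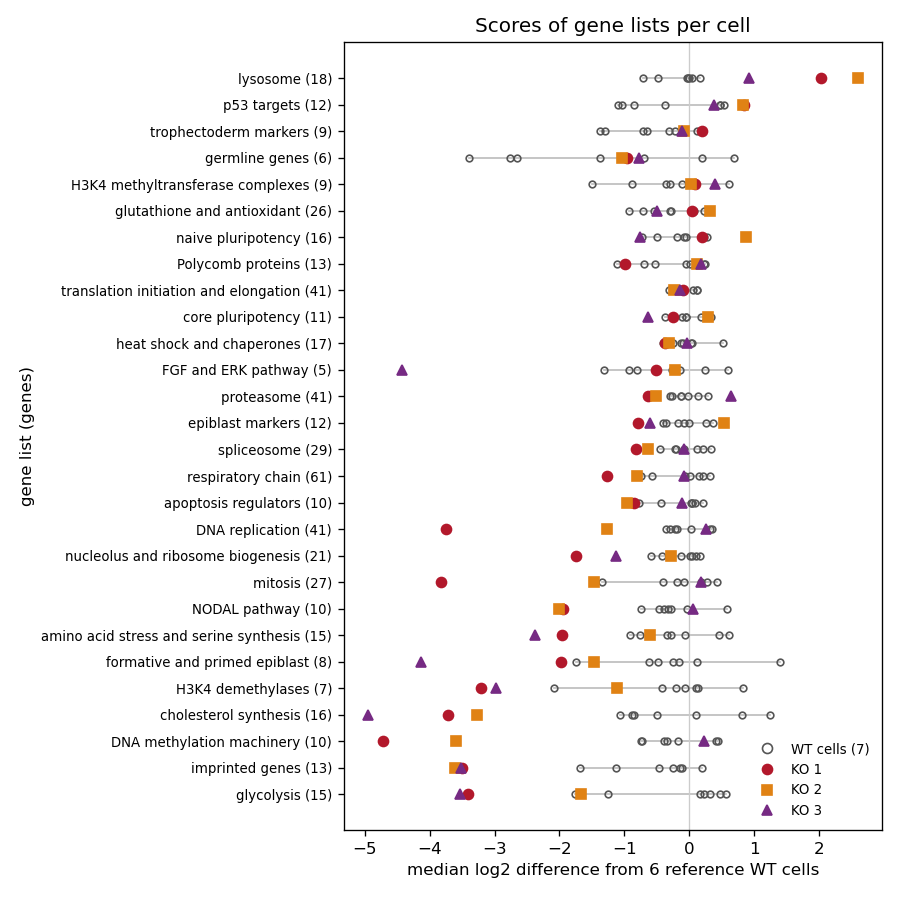
Scores of 28 gene lists (number of tested genes in brackets) in each cell, as the median log2 difference from 6 reference WT cells; grey lines span the 7 held-out WT cells. The lysosome list lies right of the WT range in all 3 KO cells, at 0.91 to 2.59, and cholesterol synthesis and imprinted genes left of it, at -4.95 to -3.27 and -3.61 to -3.50.

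Lysosomes break down proteins, sugars and lipids with acid hydrolases, and they feed amino acids and sterols back to the cell. The transcription factors TFEB and TFE3 switch on many lysosome genes through the motif TCACGTG, and in pluripotent cells TFE3 is also known as a factor that holds the naive state. The 18 tested lysosome genes scored 2.02, 2.59 and 0.91 in KO cells 1, 2 and 3 and -0.72 to 0.16 in held-out WT cells. Called higher were 8 of the 18 (44.4%), against 2.42% of all tested genes, and 0 lower, and the median log2 ratio was 2.23 against -0.16 over all genes. The motif was looked for on both strands in the 250 bases before each RefSeq start (GRCm38.p6) and after the list's values had been seen. It was found for 5 of the 14 members with a window (Ctsa, Ctsd, Glb1, Gaa and Mcoln1; 35.7%), for 6.74% of 3410 tested genes and for 3.58% of all 27025 genes with a window. A match describes the letters, not binding. Tfeb, a list member too weak to be tested, had 0.244, 0.123 and 0.330 FPKM in KO cells 1, 2 and 3. In WT cells it had 0 to 18.3 FPKM. The part of TFEB in the lysosome values was not tested.

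The windows of the 4 called genes that hold the motif are shown because they belong to the list's leading members; capitals mark TCACGTG or its other strand CACGTGA, which overlap where TCACGTGA is written. All lie on the + strand, at chr2:164833523-164833772 for Ctsa, chr9:114400828-114401077 for Glb1, chr8:3500269-3500518 for Mcoln1 and chr11:119267713-119267962 for Gaa. The other window of Ctsa, chr2:164832622-164832871, lies before an earlier start and has no match. The called genes Ctsc, Hexa, Ctsl and Grn have no match.
Ctsa: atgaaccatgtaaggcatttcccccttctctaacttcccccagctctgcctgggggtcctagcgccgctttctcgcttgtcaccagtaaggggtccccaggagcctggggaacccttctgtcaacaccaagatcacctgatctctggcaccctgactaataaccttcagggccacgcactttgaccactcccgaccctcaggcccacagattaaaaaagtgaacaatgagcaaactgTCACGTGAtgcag
Glb1: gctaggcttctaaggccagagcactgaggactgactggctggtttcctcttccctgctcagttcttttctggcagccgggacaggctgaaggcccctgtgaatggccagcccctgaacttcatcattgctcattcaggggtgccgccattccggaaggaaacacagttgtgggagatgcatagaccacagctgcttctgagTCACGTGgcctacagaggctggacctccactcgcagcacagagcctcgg
Mcoln1: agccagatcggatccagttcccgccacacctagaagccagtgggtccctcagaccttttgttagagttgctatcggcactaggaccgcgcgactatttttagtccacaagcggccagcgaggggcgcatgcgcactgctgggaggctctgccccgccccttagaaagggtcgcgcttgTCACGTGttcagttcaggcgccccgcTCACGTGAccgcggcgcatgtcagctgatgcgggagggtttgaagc
Gaa: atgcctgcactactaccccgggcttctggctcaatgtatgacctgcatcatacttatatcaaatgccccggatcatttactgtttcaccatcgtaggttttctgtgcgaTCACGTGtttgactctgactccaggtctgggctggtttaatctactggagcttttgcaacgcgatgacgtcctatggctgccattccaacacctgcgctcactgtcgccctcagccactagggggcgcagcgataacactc

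Among the enzymes, Glb1, the beta-galactosidase, had 211.5, 161.6 and 251.3 FPKM in KO cells and 0.269 to 28.4 in WT cells, median 6.32 (log2 ratio 4.86). Ctsa, a carboxypeptidase that protects Glb1 from breakdown, had 755.2, 711.4 and 352.4 FPKM and 25.8 to 75.2, median 49.2 (3.83). The groups were far apart for both genes, although KO cell 3 had the lowest Ctsa of the KO cells. Hexa, a subunit of hexosaminidase, had 594.6, 730.5 and 249.6 FPKM against 6 to 134.0 (4.30). Of the proteases, Ctsc had 72.0, 30.5 and 90.3 FPKM against 0.403 to 15.0 (4.98), and Ctsl 252.7, 365.8 and 91.1 against 25.9 to 71.3 (2.85). Ctsb had 87.1, 179.9 and 35.8 FPKM against 7.82 to 33.2; its ranges did not overlap, but the medians differed less than 4-fold. Ctsd overlapped, at 91.8, 220.5 and 196.9 against 63.3 to 196.2. Gaa, which splits glycogen, had 90.6, 109.0 and 38.2 FPKM against 0.232 to 34.1 (2.71).

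Of the other members, Grn, the precursor of granulins, was level among KO cells at 277.1, 292.3 and 264.9 FPKM against 22.6 to 102.8 (2.56). Mcoln1, a calcium channel of the lysosome membrane, had 42.5, 87.0 and 124.6 FPKM against 0.523 to 26.0 (2.96). Mfsd1, a membrane transporter of the lysosome outside the list, had 431.5, 362.5 and 163.1 FPKM against 0.424 to 38.3. Sqstm1, an autophagy receptor, went the other way in KO cells 1 and 2, at 15.8 and 39.0 FPKM, but stood at 203.4 in KO cell 3, against 61.9 to 175.8 in WT. Cd63, a membrane protein of late endosomes and lysosomes, overlapped, at 53.2, 304.2 and 238.3 FPKM against 48.0 to 448.9. In the WT endoderm cell Ctsl had 1225 FPKM, above all epiblast cells, while Grn at 76.3 and Ctsc at 14.4 lay inside the range of the WT epiblast cells. Of the endoderm markers described above, KO cell 2, which had the highest lysosome score, held Hnf4a at 24.9 FPKM (0 in every WT epiblast cell) and Lamb1 at 62.7 (at most 15.7), with Gata4 and Sox17 at 0 in all 3 KO cells. Hnf4a and Lamb1 were the 2 of 15 endoderm markers at 10 FPKM or more in that cell, and WT epiblast cells had 1 to 3. Lamc1 went the other way, at 0, 9.61 and 8.38 FPKM in KO cells 1, 2 and 3 against 14.1 to 47.5 in WT. Sox7 was at 0 in all 3 KO cells and at up to 22.0 in WT. Cd68, itself a lysosome protein of macrophages, was high in KO cell 2 alone, and the lysosome difference without that cell was 1.5 (KO median minus WT median, 2.05 with it). Of the 18 genes, 4 were in the ICM list, Ctsc and Gaa among them.

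**Figure D4:**
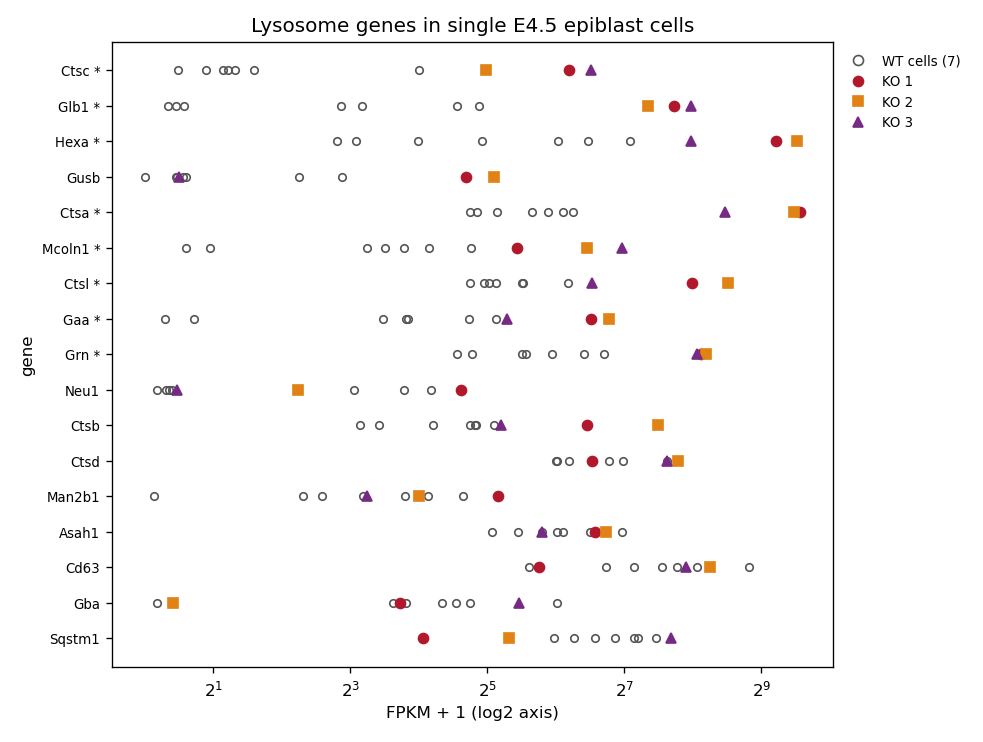
FPKM + 1 (log2 axis) of 17 of the 18 lysosome genes in 7 WT and 3 KO cells, ordered by the log2 ratio of medians; an asterisk marks genes whose groups do not overlap and whose medians differ at least 4-fold. The 8 marked genes have every KO cell to the right of every WT cell.

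Cells make cholesterol from acetyl-CoA through mevalonate and squalene. The factor SREBP2, the product of Srebf2, switches on most genes of the pathway, its own included, when sterols are scarce, together with NF-Y, which binds CCAAT. The 16 tested genes scored -3.72, -3.27 and -4.95 in KO cells and -1.07 to 1.24 in held-out WT cells. Called lower were 3 of 16 (18.8%), against 3.14% of all tested genes, and 0 higher, and the median log2 ratio was -3.91. The list's genes had a median level of 27.6 FPKM, and the 1134 tested genes at 20 to 50 FPKM scored -0.44, -0.07 and 0.16 in KO cells and -0.37 to -0.01 in WT. CCAAT, on either strand, was found in the windows of 11 of 12 members with one (91.7%), of 44.2% of tested genes and of 37.5% of all genes. CACCCCAC, searched as a sterol response motif, was found in 2 of 12 (16.7%; Hmgcs1 and Acat2), against 2.96% of tested and 2.98% of all genes. Both motifs were chosen after the list's values had been seen.

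The windows of the 3 called genes follow, with CCAAT or its other strand ATTGG in capitals. All are on the + strand, at chr13:8885356-8885605 for Idi1, chr10:76531355-76531604 for Lss and chr15:82147019-82147268 for Srebf2.
Idi1: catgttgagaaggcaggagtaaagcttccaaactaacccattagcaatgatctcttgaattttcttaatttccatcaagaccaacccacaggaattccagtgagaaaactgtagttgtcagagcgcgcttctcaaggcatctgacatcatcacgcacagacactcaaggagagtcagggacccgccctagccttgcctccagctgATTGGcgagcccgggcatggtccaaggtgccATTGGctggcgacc
Lss: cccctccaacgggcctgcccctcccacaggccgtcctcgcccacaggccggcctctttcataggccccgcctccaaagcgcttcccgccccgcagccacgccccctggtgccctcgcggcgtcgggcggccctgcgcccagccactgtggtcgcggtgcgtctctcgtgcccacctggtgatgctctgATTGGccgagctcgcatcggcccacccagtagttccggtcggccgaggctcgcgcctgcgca
Srebf2: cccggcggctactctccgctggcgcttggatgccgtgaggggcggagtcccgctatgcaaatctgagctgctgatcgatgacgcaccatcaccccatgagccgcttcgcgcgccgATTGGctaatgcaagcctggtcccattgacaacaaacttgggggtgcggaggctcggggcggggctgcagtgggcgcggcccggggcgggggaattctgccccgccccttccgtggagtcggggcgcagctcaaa

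Srebf2 had 0, 5.69 and 0.036 FPKM in KO cells 1, 2 and 3 and 18.9 to 69.0 in WT cells, median 43.4 (log2 ratio -5.42). Idi1, which isomerises isopentenyl pyrophosphate, had 0.320, 0.470 and 0.491 FPKM against 10.1 to 94.0, median 41.9 (-4.87). Lss, which closes the rings of the sterol, had 0, 3.74 and 0.0771 FPKM against 14.0 to 118.3, median 42.1 (-5.32). In each of these 3 the highest KO cell was below the lowest WT cell. Sqle, the squalene epoxidase, was near 0 in KO cells 1 and 3, at 0.0702 and 0.203 FPKM, and at 17.8 in KO cell 2, inside the WT range of 6.31 to 99.4. Mvk and Pmvk, the kinases of mevalonate, had 0.263, 26.6 and 0.819 FPKM and 0.181, 0 and 0 FPKM, with WT medians of 28.9 and 30.6, and overlapped through single WT cells near 0.

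Not every enzyme of the pathway followed. Hmgcs1, which acts before mevalonate, had 97.0, 70.2 and 40.4 FPKM in KO cells and 23.3 to 124.7 in WT, median 51.5. Fdft1, which makes squalene, also lay inside the WT range in all 3 KO cells, at 30.3, 18.5 and 54.5 against 16.7 to 115.2. Acat2, which joins acetyl-CoA units at the start of the pathway, had 123.0, 26.9 and 0.634 FPKM against 32.0 to 205.8, so KO cells 2 and 3 lay below every WT cell. Nsdhl and Tm7sf2 of the later steps overlapped with WT.

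**Figure D5:**
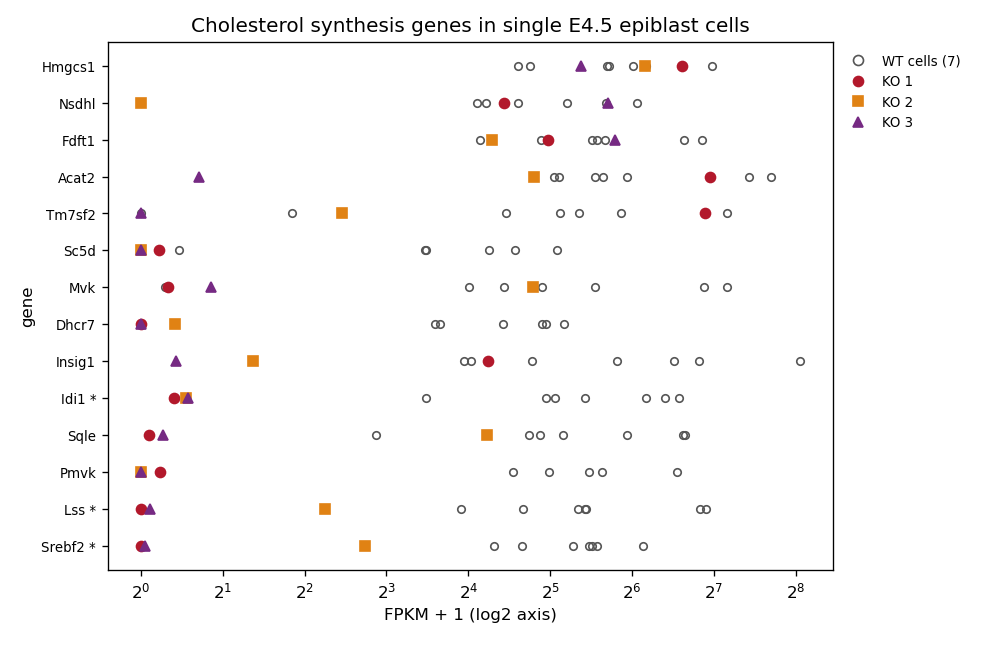
FPKM + 1 (log2 axis) of 14 of the 16 genes of cholesterol synthesis and its control in 7 WT and 3 KO cells, ordered by the log2 ratio of medians; asterisks as for the lysosome genes. The KO cells are at the left edge for Idi1, Lss, Pmvk and Srebf2, apart from KO cell 2 at 3.74 and 5.69 FPKM for Lss and Srebf2, and inside the WT range for Hmgcs1 and Fdft1.

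The same lists were looked at in the other stages. Scored for each KO library against the mean of that stage's WT libraries, the lysosome genes were below 0 in 7 of 7 KO ICM (median -1.25), above 0 in 3 of 3 KO E5.5 epiblasts (0.48) and in 2 of 2 KO endoderm cells (0.53). Cholesterol genes were below 0 in 6 of 7 KO ICM (-1.27). They were above 0 in 3 of 3 KO E5.5 epiblasts (0.17), the lowest barely so at 0.00798. Of 2 KO endoderm cells, 1 was below 0 and 1 above. Lysosome genes thus had the sign seen in the E4.5 epiblast cells at E5.5 and in the endoderm but not in the ICM, and cholesterol genes had it in most ICM but not at E5.5. All tested genes scored -0.71 in KO ICM and -0.13 at E5.5. WT libraries of these stages were not held out and scored, so the spread of WT scores around 0 is not known there. Differences between the stages were not tested.

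Imprinted genes, expressed from 1 parental copy, scored -3.50, -3.61 and -3.52 in KO cells and -1.69 to 0.19 in WT. Of 13, 2 were called lower (Igf2, a fetal growth factor, and Mcts2) and 1 higher, against 3.14% and 2.42% of all genes. Mest and Nnat were listed at 0 in the 3 KO cells, but also in WT cell 1. Slc38a4, an amino acid carrier, was the higher one, at 38.1, 87.6 and 34.2 FPKM against 0.252 to 18.9. This list consists of weakly expressed genes, with 10 of 13 at a mean below 20 FPKM. All 1011 tested genes at 5 to 10 FPKM scored -2.31, -1.03 and -2.41 in KO cells and -0.80 to -0.14 in WT, and with quantile-normalised cells the KO cells were no longer all below the WT range. Mcts2 lies within another gene, so some of the reads counted for it may come from that gene.

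Glycolysis genes, which the epiblast uses more as it leaves the naive state, scored -3.42, -1.67 and -3.54 in KO cells and -1.76 to 0.56 in WT. WT cells 1 and 2, at -1.76 and -1.25, stood near KO cell 2. Pgam1, which converts 3-phosphoglycerate, was level in KO cells at 157.7, 158.2 and 149.0 FPKM against 234.7 to 677.5, and Pgk1 had 20.8, 76.3 and 95.1 against 140.0 to 342.4. Neither overlapped, but both missed the 4-fold minimum. Eno1, which has a near-identical copy elsewhere in the genome, was the 1 of 15 called lower, with a log2 ratio of -4.14. Of all tested genes 3.14% were called lower, and 1 call in a list of this size is not set apart from that share. Of the 15, 7 were in the E5.5 list, which holds 143 of the 4166 tested genes.

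In other lists KO cell 3 departed from KO cells 1 and 2. DNA replication genes scored -3.75 and -1.27 in KO cells 1 and 2, below the WT range of -0.36 to 0.35, and 0.25 in KO cell 3. Mitosis genes scored -3.82, -1.47 and 0.18, against -1.35 to 0.43. The DNA methylation machinery scored -4.72, -3.59 and 0.22, against -0.75 to 0.44, and the maintenance methyltransferase Dnmt1 had 0.099, 0.0341 and 40.7 FPKM against 7.54 to 50.2. Its partner Uhrf1 lay inside the WT range in all 3, at 74.6, 136.8 and 155.3 against 72.1 to 268.2. The NODAL pathway scored -1.95, -2.01 and 0.06, against -0.75 to 0.58. KO cell 3 was thus inside the WT range in each of these 4 lists. Some cell cycle genes were low in all 3 KO cells even so. Cdc6, which loads the replicative helicase, had at most 0.0733 FPKM against 7.39 to 80.0, and the mitotic kinase gene Cdk1 had 80.8, 0.331 and 27.9 against 145.7 to 283.4. Y-linked genes summed to 110.0 FPKM in KO cell 3, to 7.59 to 78.1 in WT cells 3 to 6, and to at most 1.10 in the other 5 cells. The KO cell that stood apart in these lists was thus the one with Y-linked RNA, and since the labels name no embryo, cell, embryo and sex cannot be told apart.

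The members of the H3K4 methyltransferase complexes differed from gene to gene. Wdr5 had 197.2 to 227.3 FPKM against 81.9 to 201.7 in WT, and Ash2l 74.3, 117.6 and 184.4 against 61.6 to 196.9, and Dpy30 was not analysed here. Hcfc1, a cofactor of the SET1 complexes, had 0.0521, 20.1 and 59.2 FPKM against 8.03 to 104.3 and was below the WT range in KO cell 1. Setd1a, a catalytic subunit too weak for the list of tested genes, was at 0 in the 3 KO cells and in WT cell 6, and at 2.31 to 9.39 in the other WT cells. Of 9 tested genes of these complexes 0 were called, where 3.14% of all genes were called lower and 2.42% higher, so few calls would be seen in a list of this size. The list scored 0.09, 0.02 and 0.40, inside the WT range of -1.5 to 0.61. Among H3K4 demethylase genes, Rcor2, a partner of LSD1, had 6.93 to 46.9 FPKM in WT and was listed at 0 in KO. Of 13 Polycomb genes, Ezh1, a methyltransferase of H3K27, was called higher, at 24.0, 31.2 and 26.9 FPKM against 0 to 11.5. Pcgf6 and Phc1, of Polycomb repressive complex 1, were called lower, Pcgf6 with 0.071 to 37.6 FPKM in WT and 0 in each KO cell. Of all tested genes 2.42% were called higher and 3.14% lower. The Polycomb list scored -0.996, 0.11 and 0.18 in KO cells 1, 2 and 3, inside the WT range of -1.12 to 0.25. These calls thus describe single genes, and the list as a whole did not leave the WT range.

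Single genes of other groups passed as well. Ccng1, a p53 target, had 37.6, 47.8 and 43.9 FPKM against 1.06 to 11.3, in a list of 12 that scored 0.85, 0.83 and 0.37 against -1.10 to 0.53. Eif4a2, an RNA helicase of translation initiation, had 734.9, 397.8 and 495.3 FPKM against 8.34 to 110.8, the only 1 of 41 translation genes called, a share near the 2.42% of all tested genes called higher. Prdx6, a peroxidase, had 841.1, 215.0 and 548.2 against 12.6 to 169.9. Psat1 and Pycr1, of serine and proline synthesis, were called lower. Psat1 had 26.3, 33.1 and 66.3 against 108.0 to 560.0 FPKM, and Pycr1 0.103, 57.8 and 21.5 against 60.7 to 272.7. In the list of amino acid stress and serine synthesis 3 of 15 were called lower, against 3.14% of all tested genes. Medians were lower in KO for 13 of the 15, and for 2260 of all 4166 tested genes. The list scored -1.96, -0.61 and -2.38 against -0.91 to 0.61 in WT, so KO cell 2 lay inside the WT range. Asns went the other way, at 1099, 592.6 and 229.9 FPKM against 125.9 to 379.2, and overlapped. In nucleolar biogenesis, Polr1e, a subunit of RNA polymerase I, had 7.87 to 82.6 FPKM in WT and was listed at 0 in KO, and the helicase gene Ddx21 had at most 1.35 against 8.24 to 50.9.

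Genes that differed between KO and WT embryos at the other stages were then scored in the cells. Those lower in KO E5.5 epiblast (771 of 7182 genes, 10.7%) scored -1.77, -0.78 and -1.25 in KO cells against -0.41 to -0.02 in WT cells, and 37 of 486 tested (7.61%) were called lower and 11 (2.26%) higher, against 3.14% and 2.42% of all tested genes. Those higher in KO E5.5 epiblast (639 genes, 8.9%) scored -0.21, 0.19 and 0.06 against -0.68 to -0.08, with 28 of 357 (7.84%) called higher and 11 (3.08%) lower. Their difference was 0.39, and it turned to -0.31 when genes down to a mean of 1 FPKM were included. On the main scores KO cell 1 lay inside the WT range and KO cells 2 and 3 above it. Genes lower in KO ICM (178, 2.48%) scored -0.08, -0.28 and 0.15 against -0.23 to 0.15, with 1 of 148 called lower and 3 higher. Genes higher in KO ICM (31, 0.432%) scored -0.93, -1.14 and -0.25 against -0.89 to 0.42, with 0 of 31 called either way. The genes lower in KO E5.5 epiblast thus lay below the WT range in all 3 cells, and neither ICM list had all 3 cells outside it. At a mean of at least 20 FPKM the difference of these E5.5 genes (KO median minus WT median) was -0.30 instead of -1.02 and the KO cells no longer all lay below the WT range; 251 of the 486 genes were below that level.

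Scores were also made by chromosome and by promoter type, and a part of either in the differences was not tested. Of 20 chromosomes 1 had all 3 KO cells outside the WT range, chromosome 14, at -0.27, -0.51 and -0.41 against -0.16 to 0.18 after the median of all genes was taken off. Leaving out single cells gave 1 to 4 such chromosomes. H3K4 methylation is found above all at promoters rich in CpG. The score of 2416 genes with such promoters minus that of 994 others was 0.17, -0.07 and 0.12 in KO cells and -0.05 to 0.23 in WT. KO cells 1 and 3 thus lay inside the WT range and KO cell 2 below it. The 0.23 was WT cell 3, and the next WT cell stood at 0.06, below KO cells 1 and 3.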

How the data were processed

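Single cells were sequenced by SMART-seq2 with Tn5 libraries on a HiSeq instrument, per the labels' protocols. The authors deposited FPKM. The submitters' processing notes list STAR 2.7.3, Trim Galore 0.6.4 and mm10 among the tools and builds of all assays, with no roles, and no source used here names the program behind the FPKM. Of 7186 lines 4 with repeated names were left out, and 7182 genes used; the table holds only part of the mouse genes. Scores and calls were computed in Python 3.11.15 with pandas 2.3.3 on log2(FPKM + 1), within the columns of single cells, among 4166 genes with a mean of the group means of at least 5 FPKM. Relative depth came from the most frequent ratio of values under 0.5 FPKM between cells, and chains of such ratios closed within 0.012 (log2). The steps were tested on simulated data.

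Named genes were the 12 each way with the widest gap between groups, up to 4 non-overlapping and 3 highest members of each list, and 5 each way of each stage list. Other list members given, among them the called genes Ctsl, Gaa and Mcoln1, and the markers singled out were chosen after their values were seen. A few list members enter the scores and counts but are not reported here one by one. The members and lists were chosen with earlier results of these data known. RefSeq positions matched 7152 genes, and promoter windows 3410 of 4166. A promoter counted as CpG-rich at an observed to expected CpG ratio of at least 0.6 and at least 55% G+C. Alternatives were other pseudocounts, filters, normalisation, references and minimum folds, and each cell left out. H3K4me3, open chromatin and methylation data were not used here.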

Additional observations from a re-analysis of the deposited data

Results flagged for a closer look

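Of 84 measures checked over the 7 WT cells, 10 had 1 cell far from the others, where chance sets about 1 in 20 groups apart. WT cell 3 did so in 4. It had 46 genes above the range of the other WT cells (next 25), a rank correlation of 0.659 with them (next 0.737), a promoter class difference of 0.23 (next 0.06) and a score of 0.0532 for the genes higher in ICM than at E5.5 (next -0.38). WT cell 2 scored 0.15 for the genes lower in KO ICM (next -0.17). On the scale of log2(FPKM + 1) it also had 1.19 for Mmaa (next 0.08), 1.86 for Gca (next 0.59) and 1.25 for Lxn (next 0.32). WT cell 7 scored -2.09 for H3K4 demethylases (next -0.42), and WT cell 6 had 0.10 for Taf1c (next 6.32e-05), a level near 0.

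In 2 lists every KO score had opposite signs in the E4.5 epiblast cells and at another stage, and the difference was not tested. WT libraries of the other stages were not scored in the same way. Cholesterol synthesis genes had a median KO score of -3.72 in the cells and 0.17 at E5.5, where the lowest was 0.00798, close to 0. Lysosome genes had a median KO score of 2.02 in the cells and -1.25 in the E3.5 ICM.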

How the results depend on the processing

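No paired analysis was possible because no test was made and the labels name no embryo for the cells. The 2 groups hold 3 and 7 cells, which limits every range, and a pseudocount of 1 on FPKM understates differences of weak genes. Differences below are the KO median minus the WT median of the scores, and "sets" are the genes chosen in the embryo libraries. Cholesterol synthesis and the lysosome kept all 3 KO cells outside the WT range under all 19 alternatives each, as did the E5.5 set under 20. The set lower in KO E5.5 lost this at a mean of at least 20 FPKM and imprinted genes lost it with quantile normalisation. Over all alternatives 1050 values stayed within set limits and 157 moved beyond them, and 0 changed the sign of a called value. The limit was the standard deviation of the WT scores for a score and a set fold change for a count. A gene of the 12 each way stayed within it while its medians differed at least 4-fold, however far the ratio shifted. These genes had been chosen for wide gaps, which favours staying.

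With a pseudocount of 0.1 the differences were -2.996 for the E5.5 set, -5.30 for imprinted genes and -5.60 for cholesterol synthesis. With a pseudocount of 5, 81 genes were lower in KO, a KO cell had a median of 97.7 genes below and 73.4 above the WT range, and 2 chromosomes lay outside. The differences were then 1.41 and -1.43 for the ICM and E5.5 sets, -0.63 for the set lower in KO E5.5, -1.66 for imprinted genes and -1.59 for cholesterol synthesis. With genes of a mean of at least 1 FPKM, 6 lists lay below and 2 chromosomes outside. The differences were 1.18 and -2.24 for the ICM and E5.5 sets, -0.31 for the set higher in KO E5.5 (its sign changed from 0.39), -1.50 for the set lower in KO E5.5, -2.41 for imprinted genes, -2.02 for cholesterol synthesis and -0.170 for the rank correlation with WT cells. At least 20 FPKM gave 50 lower genes, medians of 179.6 genes below and 52.7 above, 1 list below, and differences of -1.38 (E5.5 set), 0.79 and -0.30 (higher and lower in KO E5.5), -2.25 (cholesterol synthesis), -0.00973 (promoter class) and -0.345 (rank correlation).

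Genes at 1 FPKM or more in at least 5 of 10 cells gave a median of 61.1 genes above, 2 chromosomes, -2.05 for the E5.5 set and -0.80 for the set lower in KO E5.5. Quantile normalisation gave 84 lower genes, a median of 208.6 below, -1.63 for the E5.5 set, -0.81 for the set lower in KO E5.5 and -1.99 for imprinted genes. A 2-fold minimum gave a median of 359.7 genes above. A reference of mean logs gave -2.13 for the E5.5 set. With the median of all genes taken off, the differences were -2.11 (E5.5 set), -0.29 and 0.37 (higher and lower in KO ICM), 0.65 (higher in KO E5.5) and 2.68 (lysosome). Stage sets at 4-fold gave 0.93 (ICM) and -0.89 (E5.5). Signature sets at 4-fold gave 0.28 (lower in KO ICM), 0.67 and -2.74 (higher and lower in KO E5.5). The cause of these shifts was not tested.

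With single cells left out, called genes ran from 142 to 297 lower and from 103 to 242 higher, lists from 2 to 9 below and 1 to 3 above, and chromosomes from 1 to 4, because fewer cells then have to lie apart. Differences ran from 1.09 to 1.91 (ICM set), -2.57 to -2.06 (E5.5 set), 0.0253 to 0.26 (lower in KO ICM), -1.10 to -0.63 (lower in KO E5.5), -3.30 to -2.46 (imprinted genes), 1.5 to 2.33 (lysosome) and -0.042 to 0.13 (promoter class).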

Other observations

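Chromosome X and Y-linked RNA divided the cells, WT cells included. After the median of all genes was taken off, the 152 tested genes of chromosome X scored 0.42 and 0.58 in WT cells 1 and 2, where Y-linked genes summed to 0.347 and 0.488 FPKM, and -0.73 and -0.76 in WT cells 3 and 4, where they summed to 78.1 and 26.3 FPKM. KO cells 1, 2 and 3 scored 0.36, 0.18 and 0.00. WT cell 7, with a Y-linked sum of 0, scored -0.19, like WT cells 5 and 6 at -0.19 and -0.29, whose Y-linked sums were 7.59 and 8.96 FPKM. Xist, the RNA that coats an inactive X chromosome, had at most 0.0125 FPKM in all 10 cells.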
